A study of Schizosaccharomyces pombe with 36 samples.

Results

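The comparison set the libraries labelled stn1-226 rif1 deletion against wild type in fission yeast, Schizosaccharomyces pombe, grown at 34 °C, the temperature at which the temperature-sensitive stn1-226 allele is impaired. Libraries were chosen by their titles: 4 of the labelled double mutant and 4 of wild type, 8 of the 36 in the series, each group with 2 replicates for DNA polymerase delta and 2 for DNA polymerase epsilon. The question was how far the double mutant returns to wild type, so stn1-226 alone and the libraries labelled rif1 deletion, both at 34 °C, are set beside it where a value turns on them. Per the labels, the double mutant carries rif1{delta}, stn1-226 (ts) and rnh201{delta}::hphNT1, with a loxp:cdc6-I591G:loxm3 or loxp:cdc20-M630F:loxm3 polymerase allele, leu1-32 and ura4-. The stn1-226 strains are listed with the same alleles except rif1{delta}. The strains labelled rif1 deletion carry rif1::BSD and rnh201::kan with the markers ade6-704, ura4-D18 and leu1-32. Wild type is h- with cdc6-L591G or cdc20-M630F, rnh201-RED:kan and the markers ade6-704, ura4-D18 and leu1-32, so all groups share an altered rnh201, the ribonuclease H2 gene, and a mutant polymerase. The double mutant and wild type differ in rnh201 allele, polymerase construct and markers as well as in stn1 and rif1, and these cannot be told apart. Each group and polymerase is 1 strain, so the replicates may be technical and p-values measure only the spread between these samples.

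Polymerase usage sequencing (Pu-seq) maps ribonucleotides left by a mutant polymerase as the ends of alkali-cut DNA fragments. Leading strands are made mainly by Pol epsilon and lagging strands mainly by Pol delta, so a switch of strand along the chromosome marks a place where forks start, and the strand bias between such places gives the direction of forks. Stn1 works with Ten1 at telomeres, where the complex is known to help complete DNA synthesis. Rif1 is a telomere-associated protein that also holds back origins elsewhere in the genome, through protein phosphatase 1, and many late or dormant origins of fission yeast are early in its absence. Taz1, the shelterin protein that binds telomeric repeats, holds back a further group of origins through Rif1.

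The labels were checked against the fragment ends over the genes they name. Over rif1 (SPAC6F6.17, ASM294v3 chromosome I 2766273 to 2770704), ends stood at 1.09 ± 0.083 times the median bin in the libraries labelled stn1-226 rif1 deletion and at 1.08 ± 0.026 in wild type (SD, n = 4 each), against 0.012 ± 0.0076 in the libraries labelled rif1 deletion (SD, n = 4). The ends over rif1 therefore go against the rif1{delta} of the label, or the allele removes too little of the gene to lower its mean over bins of 300 bp. Within the gene, the lowest bin, 2767201 to 2767500, stood at 0.72 times wild type, and 0.179% of bins were as low. The highest, 2766601 to 2766900, stood at 1.21. Whether these bins mark the allele was not tested. Because the mean over rif1 does not bear out the label, the group is called the labelled double mutant. Every direction given for it is a direction of these libraries. Over rnh201 the labelled double mutant held 0.064 to 0.115 times the median bin, whose label gives a deletion. Wild type held 0.210 ± 0.033 (SD, n = 4), low as well, though its label rnh201-RED:kan names no deletion, and the RED allele was not checked further. Libraries held 6936646 to 24439032 ends, with a median of 149 to 516 ends per bin, and the window around a site held a median of 3062 to 10671 ends.

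Forks in the labelled double mutant started far more often than in wild type at a group of weakly used places, and less often at another group, of ordinary sites. At each of 538 initiation sites the step was the log2 ratio of ends left by forks moving away from the site over ends left by forks moving into it, within 3 kb on each side. The step rose at 38 sites (7.06% of those tested) and fell at 26 (4.83%), by edgeR's quasi-likelihood test with Benjamini-Hochberg adjustment at 0.05. The 38 rises had a median of 0.99 log2, with 1.05 in replicate 1 and 0.94 in replicate 2, and the 26 falls a median of -0.48, with -0.46 in each replicate. All 38 rises and all 26 falls had the same sign in both replicates, and 38 and 25 of them had it with both polymerases. The calls rest on these same libraries, so this sameness of sign is largely fixed by the call and is no separate support. The values of the 2 groups did not overlap at 22 of the 38 rises and 12 of the 26 falls, and 8.18% of all 538 sites were apart in this way. In stn1-226 alone, measured against the same wild type libraries, no site passed the test (19 at an unadjusted p under 0.05), and the libraries labelled rif1 deletion, again against the same wild type, had 23 rises (4.28%) and 78 falls (14.5%). The replicate 2 libraries of that last group had the lowest strand polarity at 34 °C, with an SD over windows of 0.804 and 0.803 log2, against 1.07 to 1.57 in the labelled double mutant and wild type. The median step change of the group against wild type over all 538 sites was -0.24, beside -0.06 in the labelled double mutant, and without those libraries, left out after seeing the data, it was -0.10, with 41 rises and 16 falls.

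**Figure D1:**
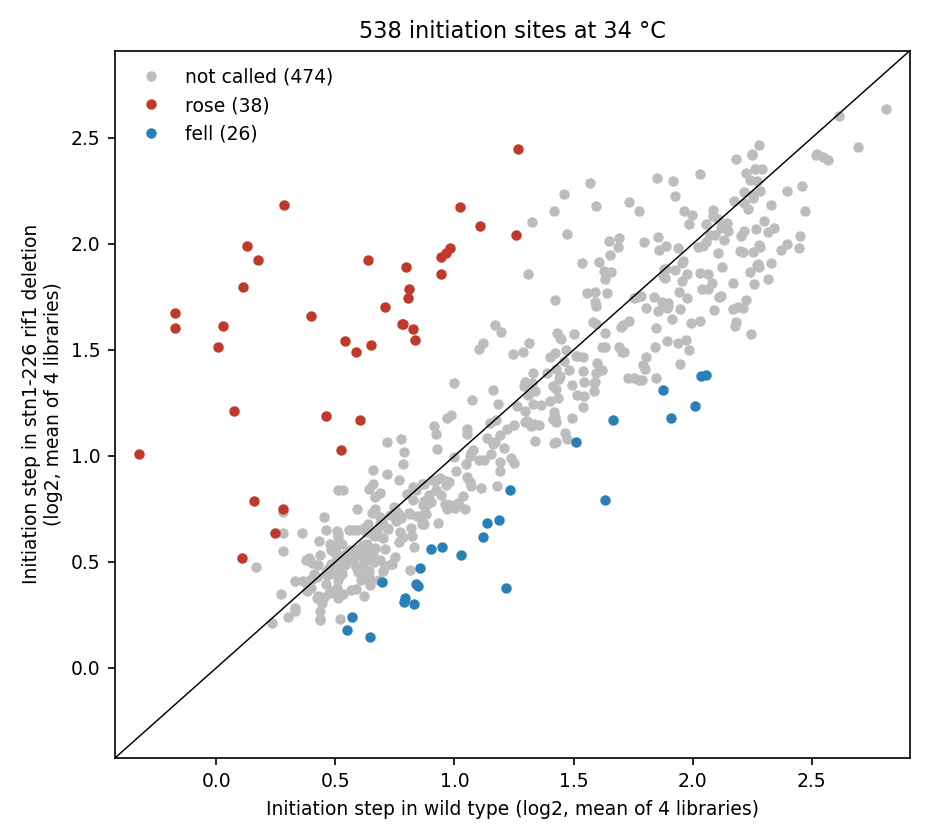
Initiation step at each of the 538 sites in the libraries labelled stn1-226 rif1 deletion against wild type at 34 °C, in log2, as the mean of 4 libraries per group, with the diagonal marking equality. The 38 sites that rose lie above the diagonal mostly at low wild type steps, and the 26 that fell lie below it.

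The sites that rose were poorly used in wild type. Their median step was 1.64 log2 in the labelled double mutant and 0.59 in wild type, against 1.15 and 1.07 over all 538 sites. The rises were called against these same wild type libraries, so their low wild type step is partly fixed by the call. At 14 of the 38 no site was called within 1 kb in wild type libraries alone, which holds for 26 of all 538 sites and for 0 of the falls. Sites were called in pooled libraries that include the mutants, so the list holds places silent in wild type only if a mutant uses them. On a list of 561 sites called in wild type alone, 23 rose and 37 fell, so which direction was the more frequent depended on the list. The falls were ordinary sites, with a median of 0.56 in the labelled double mutant and 1.07 in wild type. Rises lay between genes at 35 of 38 sites and falls at 22 of 26, beside 478 of all 538. Base content did not separate them, at 71.3% A and T around rises, 71.4% around falls and 71.3% around all sites. By chromosome, 17 rises lay on I, 18 on II and 3 on III, and 8, 13 and 5 falls.

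The 12 sites with the largest rises were named by a rule on size. The largest lay on chromosome II at 1079701, 255 bp from yea4 (SPBC1734.09), whose Saccharomyces cerevisiae counterpart transports a nucleotide sugar. Its step was 2.01 and 1.67 in the Pol delta and 2.41 and 2.65 in the Pol epsilon libraries of the labelled double mutant, against -0.01 and -0.37 with Pol delta and 0.59 and 0.93 with Pol epsilon in wild type. Every library of the labelled double mutant was above every wild type library, by 1.90 log2 on average (SE 0.20, adjusted p = 0.000985). The same site moved by -0.14 in stn1-226 and by 1.45 in the libraries labelled rif1 deletion, which share the wild type libraries.

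The site 377 bp from klp3 (SPAC1834.07), a kinesin gene on chromosome I at 4706401, had steps of 1.41, 2.34, 1.66 and 2.54 in the labelled double mutant, against -0.33, 0.67, -0.29 and 0.47 in wild type, each in the order Pol delta 1, Pol epsilon 1, Pol delta 2 and Pol epsilon 2, which is kept for all values by library. The groups did not overlap and differed by 1.85 (SE 0.20, adjusted p = 0.000985). Near dpe2 (SPCC965.12) on chromosome III at 2308501 the steps were 1.56, 2.20, 1.18 and 1.75 in the labelled double mutant, against -0.24, 0.17, -0.38 and -0.24 in wild type. Wild type showed no step there with either polymerase, and the difference was 1.85 (SE 0.17, adjusted p = 0.000985).

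Beside ubc1 (SPBC2D10.20), a ubiquitin-conjugating enzyme gene on chromosome II at 3008401, the labelled double mutant had 1.10, 2.20, 1.22 and 1.91, against -0.59, 0.29, -0.51 and 0.11 in wild type. The difference was 1.78 (SE 0.17, adjusted p = 0.000985), again with no overlap. Near erg1 (SPBC713.12), the gene for squalene monooxygenase of ergosterol synthesis on chromosome II at 891601, steps were 1.37, 1.91, 0.97 and 1.80 in the labelled double mutant, against -0.34, 0.25, -0.29 and 0.41 in wild type. That site rose by 1.51 (SE 0.20, adjusted p = 0.00238). Between these in size were the sites next to SPBC3B8.08 with 1.75, pas1 (SPAC19E9.03), a cyclin gene, with 1.68, and mug114 (SPAC4F8.08) with 1.58.

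The remaining named rises were smaller or started from a higher wild type step. The site 30 bp from SPAC23H4.05C rose by 1.33. The site near rpa12 (SPCC1259.03), a subunit gene of RNA polymerase I, had 2.20, 1.68, 1.61 and 2.20 in the labelled double mutant, against 0.68, 0.60, 0.16 and 1.10 in wild type, a rise of 1.28 (SE 0.17, adjusted p = 0.00238). The site near gap1 (SPBC646.12C), which encodes a Ras GTPase-activating protein, rose by 1.26. SPAC1093.07 was the exception among the 12, with 2.12, 2.63, 1.87 and 3.16 in the labelled double mutant, against 0.65, 1.66, 0.55 and 2.21 in wild type. Its groups overlapped because the Pol epsilon values of wild type reached those of Pol delta in the labelled double mutant, and its rise of 1.17 (adjusted p = 0.0215) lost its call without any of 6 of the 8 libraries. The other 11 kept their calls whichever library was left out.

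**Figure D2:**
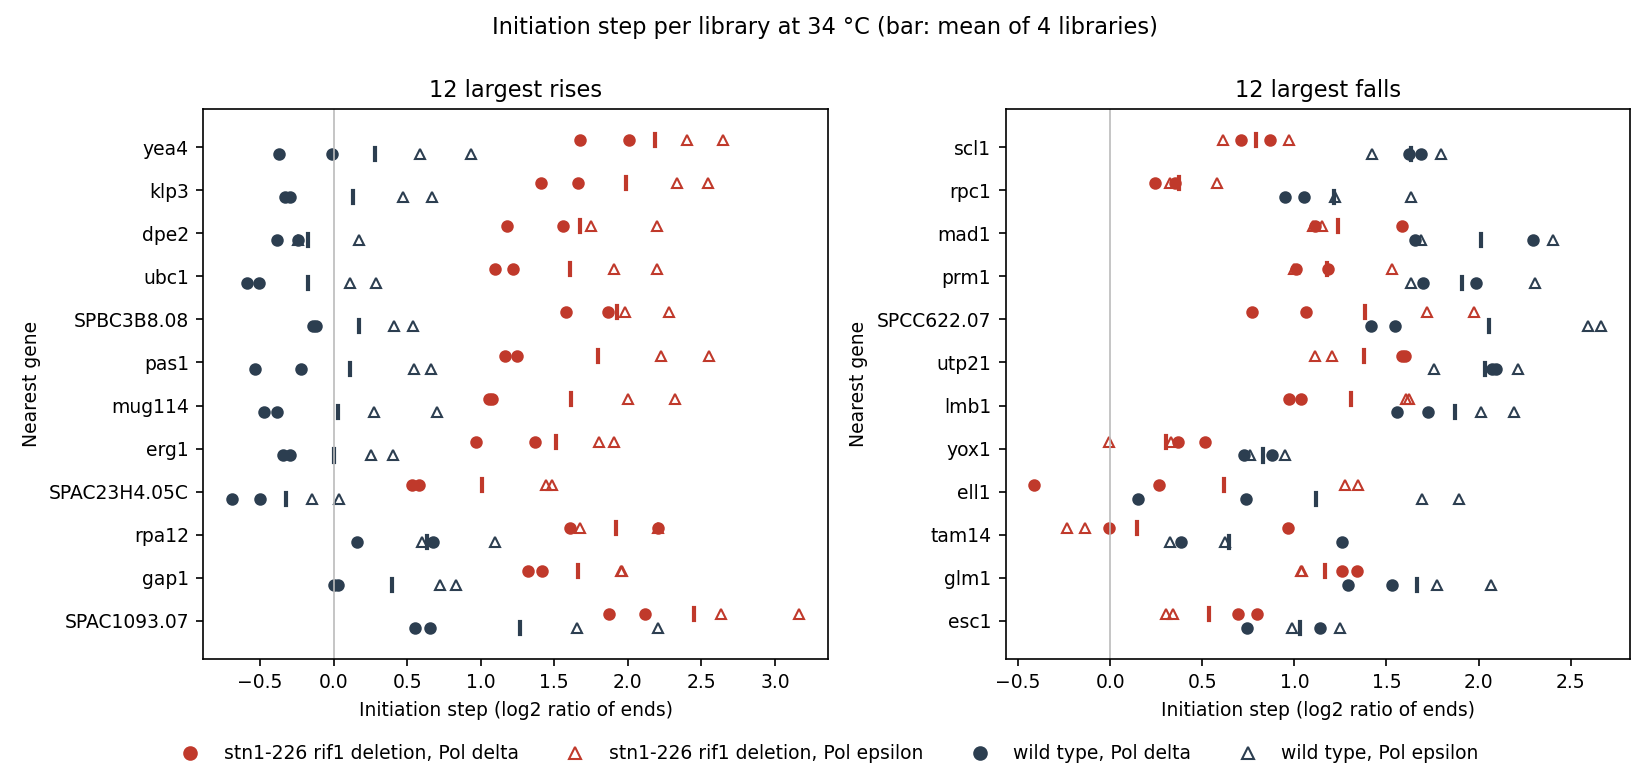
Initiation step in log2 in each library (filled, Pol delta; open, Pol epsilon; bar, mean of 4) at the 12 largest rises and the 12 largest falls, with the labelled double mutant drawn above wild type in each row. All 4 libraries of the labelled double mutant lie above all 4 of wild type at the first 11 rises and overlap them at SPAC1093.07.

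Among the sites that rose were most of those that carry the Rif1 consensus sequence, a G-rich motif bound by Rif1 in fission yeast. Of 10 sites within 1 kb of a match on either strand, 8 rose and 0 fell, with a median of 1.42 log2, beside a median of -0.06 over all 538 sites, of which 7.06% rose and 4.83% fell. At 7 of the 10 no site was called within 1 kb in wild type, so that these were listed because a mutant uses them and the direction at them was partly fixed by the listing; 6 of those 7 rose, and 2 of the other 3. In the same 10 the median was -0.09 in stn1-226 and 1.13 in the libraries labelled rif1 deletion, both against the shared wild type. The matches next to the 4 largest rises of the group, and those at the sites that did not rise, are printed with the match in capitals, 5′ to 3′ on the strand of the match, from RefSeq ASM294v3. They were chosen to let the 2 outcomes be read side by side.
yea4, chrII:1080029-1080089, reverse strand: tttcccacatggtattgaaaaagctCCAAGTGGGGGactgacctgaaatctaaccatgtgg
klp3, chrI:4706066-4706126, forward strand: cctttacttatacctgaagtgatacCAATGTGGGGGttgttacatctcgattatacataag
ubc1, chrII:3008787-3008847, forward strand: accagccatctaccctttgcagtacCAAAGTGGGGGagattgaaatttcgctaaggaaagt
mug114, chrI:2663729-2663789, forward strand: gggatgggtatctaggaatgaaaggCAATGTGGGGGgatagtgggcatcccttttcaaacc
ach1, chrI:4982276-4982336, forward strand: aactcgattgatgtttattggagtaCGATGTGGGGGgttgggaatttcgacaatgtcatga
rad21, chrIII:1341825-1341885, reverse strand: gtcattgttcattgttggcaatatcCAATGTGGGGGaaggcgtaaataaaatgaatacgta

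The core letters of the match are fixed by the search, so their sameness at sites that rose and at sites that did not is not a result. The step near ach1, an acetyl-CoA hydrolase gene, differed by 0.08 (adjusted p = 0.745), and that near rad21, a cohesin subunit gene, by -0.18 (adjusted p = 0.712). The other sites of the group that rose were erg1 and SPAC23H4.05C, given above, SPAC25A8.03C with 0.97 and nif1 with 0.94 (adjusted p = 0.0484). dpe2 and SPBC3B8.08 lay just outside the 1 kb limit, with matches 1271 and 1423 bp away. The motif was present in 0.764% of 6284 windows of 2 kb along the genome, beside 1.86% of the sites. Taken at all 57 matches, with or without a called site, the step changed by more than 1 log2 at 16 (28.1%), beside 17 of 4175 places spaced every 3 kb (0.407%). Of those 16, 9 had no called site within 1 kb. Neighbouring matches were counted separately, although some share a window: those near mug114 have the same change (1.37), as do those near yea4 (1.69). The 28.1% is therefore not a share of separate places. Among the 9 are a match 1037 bp from the mug114 site and matches near dpe2.

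A second motif, a pair of telomere-like GGTTAC sequences within 200 bp on either strand, marked 10 sites, of which 6 rose and 0 fell, with a median of 0.73, beside 7.06% and 4.83% of all sites. At 2 of the 10, both among the rises, no site was called within 1 kb in wild type. Such pairs are a feature of origins held back by Taz1. The short pairs at dpe2, a site with no step in wild type, and at SPAC806.06C, which rose by 0.90, are shown with the motif or its complement in capitals.
dpe2, chrIII:2307573-2307608, forward strand: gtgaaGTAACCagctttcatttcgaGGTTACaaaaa
SPAC806.06C, chrI:244393-244416, forward strand: aaacaGTAACCcaGGTTACtgttg
The other rises of this group were coa6 with 1.14, ski7 with 1.09, SPAC25A8.03C with 0.97 and hry1 with 0.56, and oxa101 was the lowest of the 4 that did not rise, with -0.37 (adjusted p = 0.24). Pairs were found in 2.58% of the 2 kb windows and at 1.86% of the sites, and SPAC25A8.03C belongs to both motif groups.

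The falls were smaller than the rises, between -0.84 and -0.29 log2. Near rpc1 (SPBC651.08C), the gene for the largest subunit of RNA polymerase III on chromosome II at 1254901, steps were 0.24, 0.33, 0.35 and 0.58 in the labelled double mutant, against 1.05, 1.22, 0.95 and 1.63 in wild type. The groups did not overlap, and the step fell by 0.84 (SE 0.12, adjusted p = 0.00238). Near scl1 (SPBC646.16), a proteasome subunit gene on chromosome II at 957301, steps were 0.87, 0.61, 0.71 and 0.97 in the labelled double mutant, against 1.62, 1.42, 1.69 and 1.79 in wild type, a fall of 0.84 (SE 0.15, adjusted p = 0.00795) that lost its call without the Pol delta replicate 2 library of wild type. In stn1-226 these sites differed from wild type by -0.31 at rpc1 and 0.04 at scl1.

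Next in size were the sites near mad1, a spindle checkpoint gene, with -0.77, prm1 with -0.73, SPCC622.07 with -0.68 and utp21 with -0.66, and each of these lost its call without any of 5 to 7 of the 8 libraries. The same held for lmb1 (-0.57), ell1 (-0.50) and glm1 (-0.50), whereas esc1, a transcription factor gene, lost its call of -0.50 without any of 3. The fall near yox1 on chromosome II at 1629301, in the centromere, was kept whichever library was left out. Its steps were 0.51, 0.00, 0.37 and 0.33 in the labelled double mutant, against 0.88, 0.76, 0.73 and 0.95 in wild type (-0.53, adjusted p = 0.00238). The site near tam14 on chromosome III at 114301 fell by 0.50 (adjusted p = 0.00627). It lies beside ura4, over which ends stood at 0.574 to 1.09 times the median bin in the labelled double mutant and 0.00 to 0.103 in wild type, and the part of that in its fall was not tested. Its call was also lost without the Pol delta replicate 2 library of wild type.

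The telomere-proximal helicase genes tlh1 and tlh2 gave nearly the same fall. At tlh1 on chromosome I, 6301, steps were 0.70, 0.27, 0.47 and 0.10 in the labelled double mutant, against 1.25, 0.65, 0.83 and 0.67 in wild type (-0.46, adjusted p = 0.000985). At tlh2 on chromosome II, 4526401, steps were 0.77, 0.25, 0.41 and 0.14 in the labelled double mutant, against 1.21, 0.66, 0.76 and 0.73 in wild type (-0.45, adjusted p = 0.000985). The copies are nearly identical and share reads, so these are not separate measurements, the highest labelled double mutant value overlapped wild type at both, and both calls were lost without the replicate block. The early origin ars1 beside hus5, which encodes the SUMO-conjugating enzyme, had steps of 1.07, 1.58, 0.93 and 1.55 in the labelled double mutant, against 1.28, 1.88, 1.06 and 1.97 in wild type, and did not pass the test (adjusted p = 0.344).

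Sites near the ends of chromosomes I and II had median changes close to 0. Over all sites 7.06% rose and 4.83% fell. In the outer 50 kb of chromosomes I and II, 0 of 14 sites rose and 2 fell, with a median of 0.00. These 2 falls were those at tlh1 and tlh2, which are not separate measurements. From 50 to 100 kb from the ends 3 of 16 rose and 1 fell, with a median of -0.01. The 3 rises were those near SPAPJ695.01C with 0.63, hry1 with 0.56 and SPBPB21E7.05 with 0.47, and the fall was that near SPBPB8B6.05C with -0.39. On chromosome III none of 8 sites in the outer 100 kb passed (0 of 8). Within 50 kb of a centromere 1 of 26 rose and 3 fell, with a median of -0.09. Of 51 sites within 1 kb of a tRNA gene 0 rose and 6 fell, with a median of -0.25.

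The count of changed sites varied with the libraries used. It was 24 without the Pol delta replicate 2 library of wild type, 28 without the Pol delta replicate 1 library of wild type or the Pol delta replicate 2 library of the labelled double mutant, 29 without the Pol delta replicate 1 library and 33 without the Pol epsilon replicate 2 library of the labelled double mutant, and 43 without its Pol epsilon replicate 1 library, against 64 with all. It was higher, at 309, with the 8 libraries of the 2 groups fitted alone, and at 252 with Pol delta libraries alone. With Pol epsilon libraries alone no site passed (31 at an unadjusted p under 0.05).

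Most of the sites that rose, and fewer of those that fell, also passed at 25 °C, in libraries that share none with the comparison at 34 °C: 29 of the 38 rises and 11 of the 26 falls. The calls at 25 °C and the interaction came from a fit of 32 libraries without the replicate block, unlike the calls at 34 °C. That fit also called fewer sites at 34 °C, so calls at the 2 temperatures were not made alike. At 25 °C the labelled double mutant against wild type had 34 rises (6.32%) and 13 falls (2.42%), so 5 of its rises and 2 of its falls did not pass at 34 °C. Against the libraries labelled rif1 deletion at 25 °C, which had 26 rises (4.83%) and 13 falls (2.42%), 26 and 10 passed in the same direction, with medians of 1.12 and -0.46 in the labelled double mutant at 34 °C. The Pol epsilon replicate 2 library of rif1 deletion at 25 °C was placed less clearly along the chromosomes than the others, with its best match unshifted in 11 of 26 windows, and without it 22 sites rose and 5 fell, all of which passed in the same direction at 34 °C. Over the 538 sites, Pearson's r was 0.91 and Spearman's rho 0.76 with the labelled double mutant at 25 °C, and 0.91 and 0.80 with rif1 deletion at 25 °C, as a description across sites that share their base composition and site list. The difference between temperatures, tested as an interaction, passed at 0 of 538 sites by edgeR and by DESeq2 (1 at an unadjusted p under 0.05 by edgeR). The labelled double mutant and the libraries labelled rif1 deletion at 34 °C differed at 0 sites (24 at an unadjusted p under 0.05), and at 0 without the low-polarity libraries named above (6 at an unadjusted p under 0.05).

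At the ends of chromosomes I and II, total ends of the labelled double mutant lay closer to wild type than those of stn1-226. Of the 8 blocks of 50 kb in the outer 100 kb, 5 fell in stn1-226 and 1 of those 5 in the labelled double mutant, which was higher than stn1-226 in 4 of the 5. The 5 were chosen by their low stn1-226 values, so higher values of the labelled double mutant there are partly fixed. The block from 50001 to 100000 on the left of chromosome II is among the 4. It holds the 10-kb block described last, which split by polymerase. From 50 to 100 kb from the ends, 1 of 20 blocks of 10 kb rose against stn1-226 (0.558% of all blocks). Total ends are both strands summed. Levels are TMM-scaled ends per 1000000 in a 300-bp bin. Over the genome 4 of 250 blocks rose (1.6%) and 32 fell (12.8%) in the labelled double mutant (14.4% called), beside 18 falls (7.2%) in stn1-226. Only 1 block passed without the replicate block, so these calls rest on pairing the replicates, and scaling by total ends in place of TMM gave 37 rises and 8 falls. The count was 6 to 10 without the Pol delta replicate 2 library of either group or the Pol epsilon replicate 1 library of either group, 19 without the Pol delta replicate 1 library of the labelled double mutant, and 58 without the Pol epsilon replicate 2 library of wild type. In bulk DNA, fewer cells with the region and less of it copied per cell cannot be told apart.

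The left end of chromosome I, first 50 kb, had levels of 30.1, 29.5, 29.3 and 26.1 in the labelled double mutant, against 31.1, 36.2, 26.8 and 33.0 in wild type. The groups overlapped, and the difference of -0.14 log2 did not pass (adjusted p = 0.0637), while stn1-226 fell by 0.44 against the same wild type. The labelled double mutant was higher than stn1-226 there by 0.30 (adjusted p = 0.00124), and 1.6% of all blocks rose in that comparison. When bins of extreme level were masked, it was higher by 0.27 (adjusted p = 0.0368). The call against stn1-226 in the next 50 kb inward was then lost (adjusted p = 0.0543). The right end of chromosome II had 32.5, 31.6, 32.3 and 28.1 in the labelled double mutant, against 34.6, 42.8, 29.7 and 38.8 in wild type. Here a fall of 0.22 passed (SE 0.049, adjusted p = 0.0129), smaller than the 0.53 by which stn1-226 fell, with the labelled double mutant higher than stn1-226 by 0.31 (adjusted p = 0.00124). That call was lost without the Pol epsilon replicate 1 library of wild type, without the replicate block (adjusted p = 0.194) and when bins of extreme level were masked (-0.15, adjusted p = 0.0671).

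At the remaining ends the labelled double mutant, averaged over both polymerases, did not pass against wild type or against stn1-226. The right end of chromosome I had 23.4, 24.1, 25.2 and 22.1 in the labelled double mutant, against 22.7, 28.9, 20.6 and 27.0 in wild type, a difference of -0.06 (adjusted p = 0.543), with -0.26 in stn1-226. The left end of chromosome II had 20.6 to 23.6 in the labelled double mutant, against 21.5, 26.4, 19.6 and 25.2 in wild type (-0.07, adjusted p = 0.401), with -0.17 in stn1-226 (adjusted p = 0.0731). Against stn1-226 the difference at the right end of chromosome I was 0.20 (adjusted p = 0.202). In all 4 blocks the polymerases differed: with Pol delta alone the difference from wild type was 0.01 to 0.17, and with Pol epsilon alone -0.45 to -0.27. No end passed with Pol delta alone (adjusted p between 0.191 and 0.862), whereas all 4 passed as falls with Pol epsilon alone (adjusted p = 0.00037 or lower at each). Wild type levels were higher in both Pol epsilon than in both Pol delta libraries at every end. Levels of the labelled double mutant and of the libraries labelled rif1 deletion were not, at any end.

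**Figure D3:**
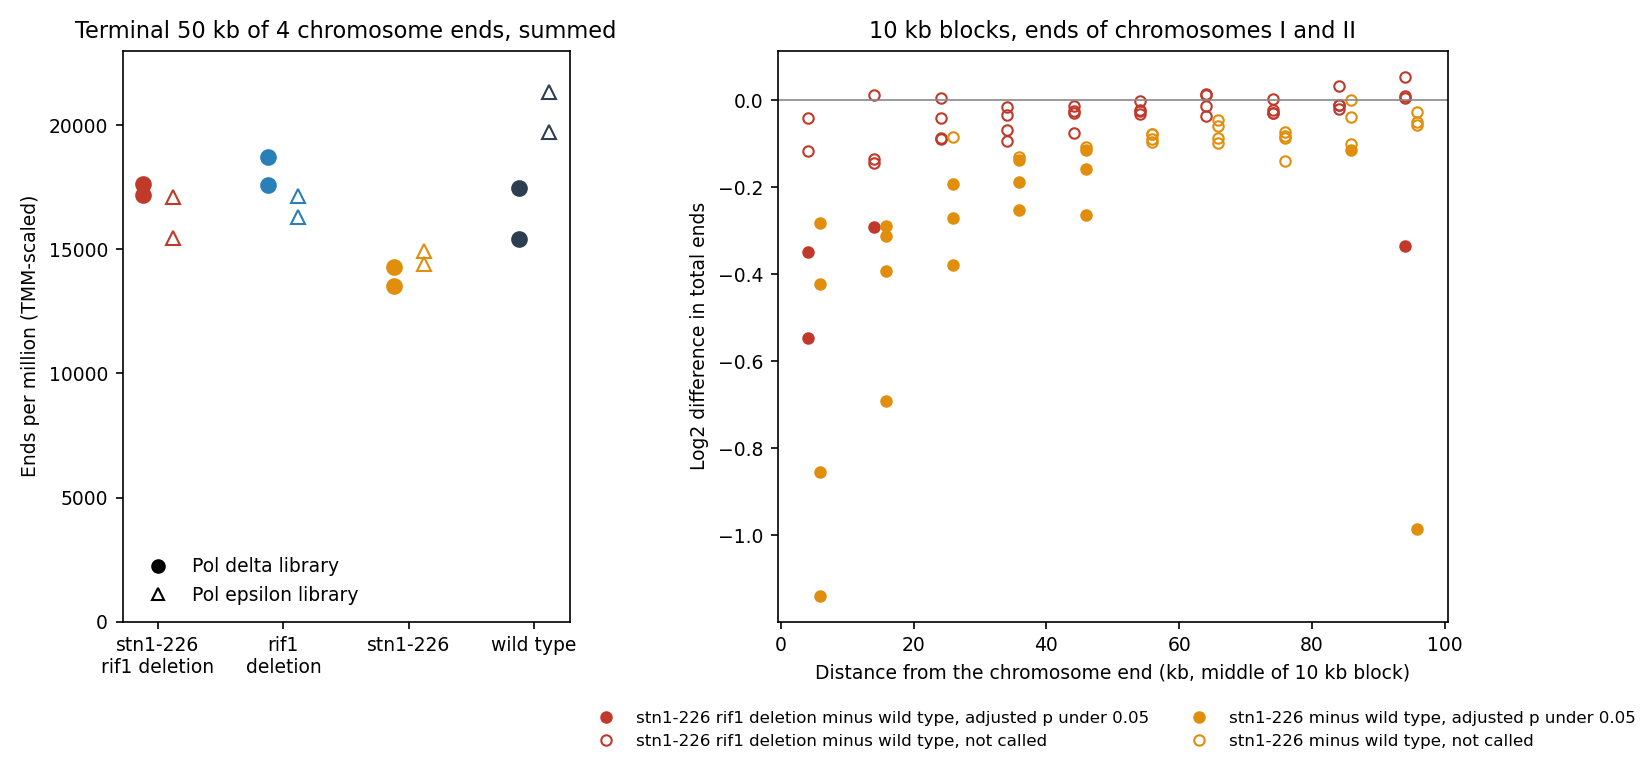
Left, TMM-scaled ends per 1000000 in the terminal 50 kb of 4 ends (chromosomes I and II), summed, in each library (filled, Pol delta; open, Pol epsilon) of the labelled double mutant, the libraries labelled rif1 deletion, stn1-226 and wild type; right, log2 difference from wild type in 10-kb blocks by distance from the end, filled where the adjusted p was under 0.05. The 4 libraries of the labelled double mutant sit above those of stn1-226, and 3 blocks of the outer 50 kb are filled for the labelled double mutant against 17 for stn1-226.

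Summed over the 4 ends, the labelled double mutant held 17191, 17105, 17614 and 15476 ends per 1000000, stn1-226 13519, 14422, 14298 and 14952, and wild type 17480, 21353, 15409 and 19722. The labelled double mutant lay above every stn1-226 library. It overlapped wild type with Pol delta, and with Pol epsilon both of its libraries lay below both of wild type. The difference from wild type was -0.13 log2, with an exact two-sided permutation p of 0.278 over 36 arrangements within polymerase, a design whose smallest possible p is 0.0556 and which therefore cannot reach 0.05. With Pol delta the means were 17402 in the labelled double mutant and 16445 in wild type, a difference of 0.08, and with Pol epsilon they were 16290 and 20538, a difference of -0.33. By the same measure stn1-226 differed from wild type by -0.24 with Pol delta and -0.48 with Pol epsilon. The libraries labelled rif1 deletion differed by 0.14 with Pol delta and -0.30 with Pol epsilon, against the same wild type.

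In blocks of 10 kb, 92 of 1255 passed (7.33%; 8 without the replicate block), 12 up (0.956%) and 80 down (6.37%), or 24 up and 29 down when scaled by total ends, and the return toward wild type was uneven along the ends. The count was 31 to 57 without any 1 library other than the Pol epsilon replicate 2 library of wild type. Of the 20 blocks in the terminal 50 kb, 3 fell in the labelled double mutant, with a median of -0.07, and 17 in stn1-226, with a median of -0.27, both against the same wild type (5.82% of all blocks fell in stn1-226). Against stn1-226 itself 5 of these 20 rose, with a median of 0.17, beside 0.558% of all blocks. The first 10 kb of chromosome I, with tlh1, had levels of 58.0, 49.1, 47.1 and 40.1 in the labelled double mutant, against 65.9, 70.7, 51.4 and 58.8 in wild type. The fall of 0.35 (adjusted p = 0.0174) was lost without any of 7 of the 8 libraries, beside -0.85 in stn1-226. The next 10 kb inward differed by 0.01 from wild type in the labelled double mutant and by -0.39 in stn1-226.

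The last 10 kb of chromosome II, with tlh2, stayed lowest. Levels were 61.0, 51.1, 52.9 and 42.4 in the labelled double mutant, against 77.1, 82.4, 66.0 and 76.9 in wild type, with no overlap. The fall was 0.55 (adjusted p = 8.05e-07; 0.00291 without the replicate block), beside -1.14 in stn1-226, and the labelled double mutant was higher than stn1-226 by 0.59. Only 11 bins of that block were used, because the last 22 bins of chromosome II are not shared by the replicates and were left out. The outermost part of this end was therefore not measured, here, in its 50-kb block or in the sum over ends. The block holds a repeated gene, and too few of its bins remained after masking to give a masked value. The block next to it, 4519805 to 4529804, fell by 0.29 (adjusted p = 0.0248), beside -0.69 in stn1-226.

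Fork direction near the ends lay farther from wild type in the labelled double mutant than in stn1-226. Fork direction is the log2 ratio, per 50-kb block, of ends left by outward forks, which run to the chromosome end, over ends left by inward forks, which run to the centromere. In stn1-226, 7 blocks fell (2.8%), all in the outer 100 kb of chromosomes I and II. The same 7 fell in the labelled double mutant as well, with a median of -0.47, between -0.95 and -0.27, and 6 of the 7 were lower than in stn1-226 itself, with a median of -0.22, beside 32.4% of all blocks. Outward forks thus made up a smaller share in these 6 blocks than in stn1-226. Genome-wide, 72 blocks rose (28.8%) and 83 fell (33.2%), which is 62% of 250, or 109 blocks without the replicate block, beside 72 (28.8%) and 80 (32%) in the libraries labelled rif1 deletion, all against the same wild type. No block differed between the labelled double mutant and those libraries (0 of 250, 39 at an unadjusted p under 0.05), or 1 did without the low-polarity ones.

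The largest change was in the block next to the right end of chromosome I, 5479134 to 5529133, which holds the site near hry1. Its direction was -0.15, -0.18, -0.04 and -0.26 in the labelled double mutant, against 1.04, 0.63, 0.90 and 0.61 in wild type. All 4 values were below 0 in the labelled double mutant, and all 4 were above 0 in wild type, where forks ran mainly outward. The fall was 0.95 (SE 0.043, adjusted p = 1.21e-07), beside -0.57 in stn1-226 and -0.93 in the libraries labelled rif1 deletion. The block at the same distance on the right of chromosome II fell by 0.59, beside -0.33 in stn1-226, that on the left of chromosome I by 0.47, beside -0.26, and that on the left of chromosome II by 0.50, beside -0.19. The libraries labelled rif1 deletion fell by 0.60, 0.44 and 0.50 in these 3 blocks, against the same wild type.

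The outermost 50 kb showed less. They fell by 0.44 on the left of chromosome I and the right of chromosome II, beside -0.23 and -0.21 in stn1-226, and with masked bins by 0.32 and 0.23. The libraries labelled rif1 deletion fell there by 0.47 and 0.48. On the left of chromosome II the fall was 0.27, beside -0.23 in stn1-226, and the labelled double mutant was not told from stn1-226 there (-0.03, adjusted p = 0.264). The right end of chromosome I differed by 0.09 (adjusted p = 0.0113), a call lost without the replicate block (adjusted p = 0.263) or without the Pol delta or Pol epsilon replicate 2 library of the labelled double mutant or the Pol epsilon replicate 2 library of wild type. On chromosome III, which carries the ribosomal DNA at its ends, the right end fell by 0.44, a call lost without the replicate block (adjusted p = 0.163). It differed by -0.08 in stn1-226, which did not pass, and by -0.37 in the libraries labelled rif1 deletion.

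**Figure D4:**
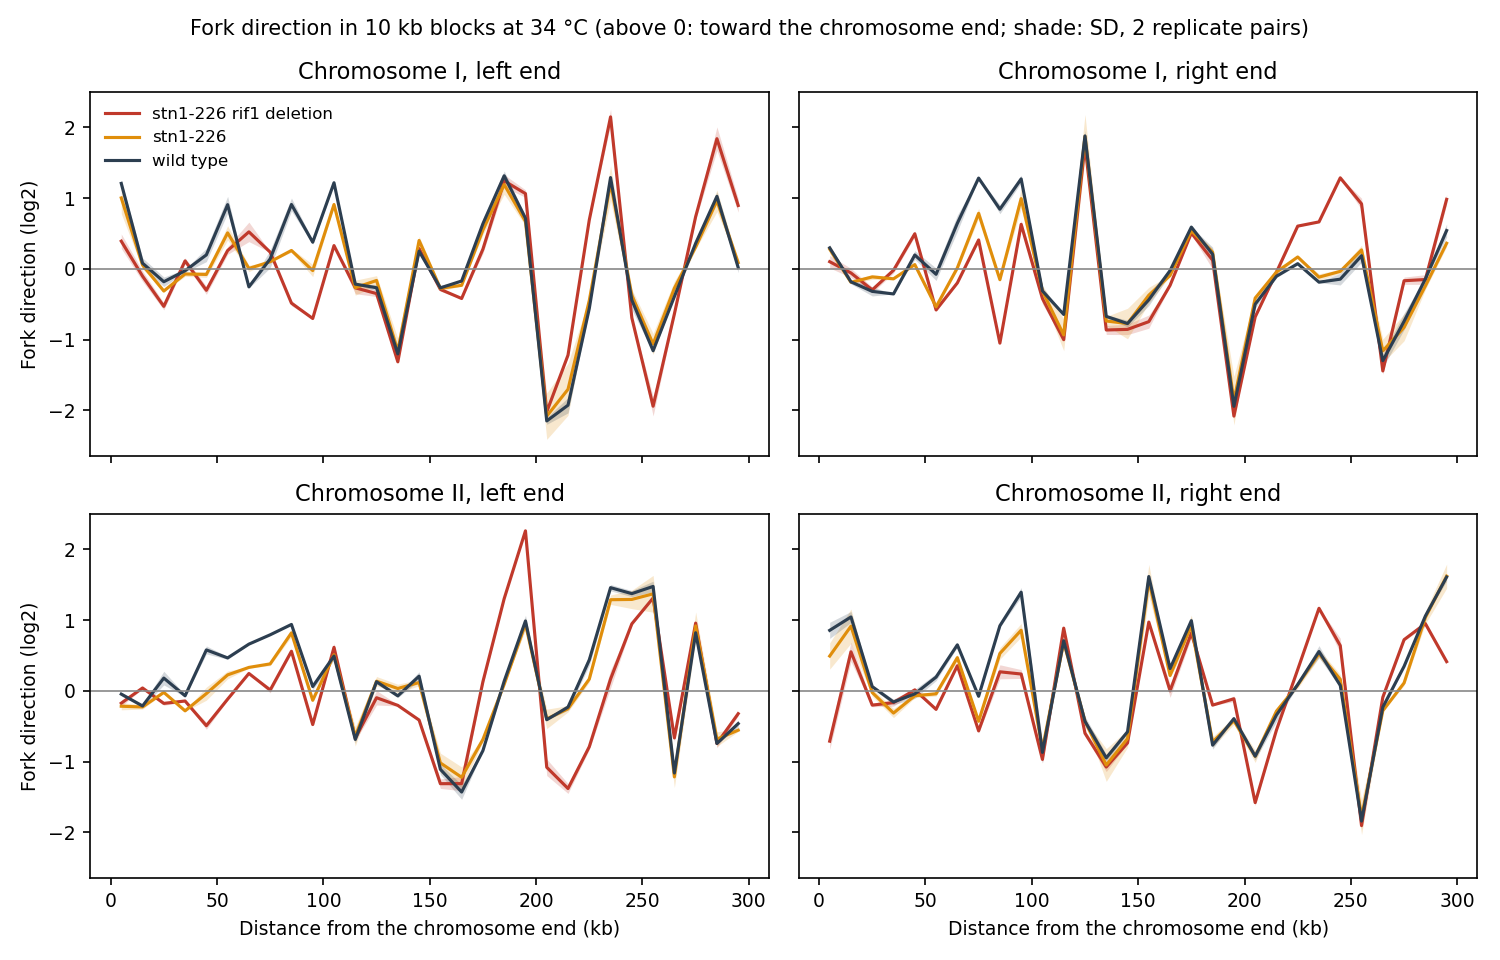
Fork direction (log2, above 0 toward the chromosome end) in 10-kb blocks by distance from each end of chromosomes I and II, as the mean of 4 libraries with the SD over 2 replicate pairs shaded, for the labelled double mutant, stn1-226 and wild type. Between 50 and 100 kb from the right end of chromosome I, stn1-226 lies mostly between the labelled double mutant below and wild type above.

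Changes of similar size lay inside the chromosomes, where stn1-226 alone had none that passed. The block around nca2 on chromosome II, 3389805 to 3439804, had 0.65, 0.23, 0.47 and 0.24 in the labelled double mutant, against -0.01, -0.49, -0.13 and -0.45 in wild type, a rise of 0.67. The block of msi2 on the same chromosome, from 200001, had -0.69, -0.33, -0.40 and -0.35 in the labelled double mutant, against 0.44, 0.52, 0.50 and 0.44 in wild type. Its 4 values in the labelled double mutant were all negative and its 4 in wild type all positive, a change of -0.91. The other named rises were at pwp2 with 0.63, rbx1 with 0.59, dea2 with 0.55, gem6 with 0.50 and SPAC7D4.08 with 0.49. The other named falls were at rad17, a checkpoint clamp-loader gene, with -0.83, oxa101 with -0.74, pof1 with -0.71 and nup184, a nuclear pore gene, with -0.69. In stn1-226 these inner blocks differed from wild type by -0.11 to 0.08 and none passed. Between temperatures no block of fork direction differed in the labelled double mutant (0 of 250 by edgeR on 32 libraries without the replicate block, 5 at an unadjusted p under 0.05).

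Outside the ends, the largest change in total ends lay at the mating-type region of chromosome II. The block from 2089805 to 2139804 had 58.3, 46.9, 46.5 and 40.4 in the labelled double mutant, against 27.2, 25.5, 24.7 and 24.1 in wild type, with no overlap (0.91 log2, SE 0.075, adjusted p = 2.82e-07). It differed from wild type by 0.78 in stn1-226 and by 0.00 in the libraries labelled rif1 deletion, and by 0.79 in the labelled double mutant with extreme bins masked. Within it the 10 kb from 2119805 to 2129804 rose by 1.69, the block of mat1-Mc by 1.18 and that of mat3-Mc by 0.73. Wild type is labelled h- and the labels of the labelled double mutant and stn1-226 name no mating type, so the arrangement of this region cannot be told apart from the genotype. The 3 other rises in 50-kb blocks, pop4 with 0.04 among them, were lost in part of the comparisons with 1 library left out and turned negative with Pol epsilon alone.

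Named falls in total ends elsewhere lay mainly at ribosomal DNA and centromeres, which are repeated. The left block of chromosome III, with ribosomal DNA, held 570, 332, 178 and 106 in the labelled double mutant, against 648, 633, 203 and 168 in wild type. Its levels varied more between replicates than between groups, and its fall of 0.50 was 0.06 with extreme bins masked. At centromere III the blocks of ppc1 and chk1, a checkpoint kinase gene, fell by 0.24 and 0.18.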

How the data were processed

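Per the labels' protocols, log-phase cells were grown in YE, genomic DNA was cut with alkali and fragments were selected by size. The deposited values are raw counts of fragment ends per 300-bp bin and strand, whole numbers with unequal totals, which no scaling had changed. Reads were aligned with Bowtie2, per the submitters' processing notes. Its version is not given in the sources used here, nor is the genome build, and ASM294v3, on which bins were placed by base content, is not known to be that build. Replicate 1 has 8084 bins on chromosome III and replicate 2 has 8177, so replicate number marks a batch that holds all groups, and only the 41793 bins common to the libraries were used.

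From the counts were computed the initiation step (10 bins per side, 538 sites above 0.35 log2 in 32 pooled libraries, taz1 deletion left out), total ends (TMM) and fork direction in blocks of 50 and 10 kb counted from the chromosome ends. Library values of steps and directions use a pseudocount of 0.5 ends. The test was edgeR 4.0.16's quasi-likelihood test (R 4.3.3) on the 16 libraries at 34 °C, for the average of both polymerases' differences, with replicate and polymerase as a block, a minimum mean of 10 ends, and Benjamini-Hochberg adjustment at 0.05. Deviations of same-numbered libraries from their group means correlated in the labelled double mutant and wild type by 0.90 and 0.85 for steps, 0.91 and 0.94 for total ends and 0.88 and 0.81 for fork direction (Pol delta and Pol epsilon), and the pairing comes from the replicate numbers in the titles. Steps and directions put the opposed counts of a library in 2 columns with the library as a block. Scripts were tested on simulated data. DESeq2 1.42.0 and limma 3.58.1 were alternatives, with numpy 2.4.6, pandas 2.3.3 and matplotlib 3.10.9 under Python 3.11.15. Named were the 12 sites with the largest called change in each direction, the sites of ars1, tlh1 and tlh2, the terminal blocks, and the 6 blocks with the largest called change in each direction. Groups of sites, rules and tests were chosen with earlier results of these data known.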

Additional observations from a re-analysis of the deposited data

How the results depend on the processing

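The libraries are few, with 2 replicates per group and polymerase. P-values of the main fit rest on a spread estimated from all 16 of its libraries, those of stn1-226 and those labelled rif1 deletion included. The least covered window around a site held 2175 ends, and the part of depth was not tested. Sites that passed numbered 24 to 72 with 1 library left out, against 64. They numbered 309 with the 8 libraries of the comparison alone, 39 with all 32 libraries and no block, 252 with Pol delta alone, 0 with Pol epsilon alone, 123 with 20 bins per side, 459 over places every 3 kb and 292 by limma on steps scaled for polarity. The fit with no replicate block gave 43 sites, DESeq2 96, limma 69, sites called in wild type alone 60 (23 rose, 37 fell), and the fit without the 2 low-polarity libraries labelled rif1 deletion, chosen after seeing the data, 86 (51 rose, 35 fell). The 50-kb blocks of total ends that passed numbered 6 to 58 with 1 library left out, against 36, and 1 with no replicate block, 1 with 32 libraries and no block, 61 by DESeq2, 11 by limma, 186 with Pol delta alone, 23 with DESeq2 size factors, 22 in blocks of 100 kb and 19 with masked bins, a setting chosen after seeing the data. Scaling by total ends gave 37 rises and 8 falls in place of 4 and 32. The 10-kb blocks numbered 31 to 94, against 92, and 8 with no replicate block, 3 with 32 libraries, 556 with Pol delta alone and 53 (24 rises, 29 falls) scaled by total ends, so the direction of small changes in total ends depends on the scaling. Blocks of fork direction numbered 136 to 160, against 155, and 79 with 32 libraries, 89 with Pol epsilon alone and 90 in blocks of 100 kb. The summed ends differed by -0.17 to -0.08 with 1 library left out. With 1 polymerase alone 9 blocks of total ends changed sign with a call on at least 1 side, and others, among them 3 terminal blocks with Pol delta (0.04, 0.17 and 0.15), changed sign without one. Of the 9, those with Pol epsilon were pop4 (-0.0063) and the other rises (-0.0484 and -0.00737), the second block of the left end of chromosome I (-0.13), that of chromosome III (0.027) and a 10-kb block of chromosome II (-0.0175). Those with Pol delta were the right end of chromosome II (0.0136) and the second blocks of the right of chromosome I (0.15) and left of chromosome II (0.12). The causes were not tested. Without the replicate block SPCC622.07, ell1, esc1, lmb1, mad1, tam14, tlh1 and tlh2 lost their calls, as did the direction of the right end and the second left block of chromosome III; the other named sites and blocks of direction, the right end of chromosome I apart, kept theirs.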

Other observations

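The 10-kb block of chromosome II from 90001 to 100000, around SPBPB10D8.05C and chosen after its values were seen, split by polymerase. Its total ends were 25.9 and 27.1 with Pol delta and 12.2 and 12.1 with Pol epsilon in the labelled double mutant, against 22.4 and 23.3 with Pol delta and 23.9 and 20.9 with Pol epsilon in wild type. The mean difference was -0.34 log2 (adjusted p = 0.000133), made up of 0.21 with Pol delta alone and -0.88 with Pol epsilon alone. In stn1-226 the block fell by 0.98. Each polymerase is a separate strain, and whether the strains differ in this block was not tested.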
